A study of Mus musculus with 8 samples.

Results

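The cytokines described here are 10 genes chosen by symbol, namely Il1a, Il1b, Il1rn, Il18, Tnf, Tnfsf9, Osm, Il6, Il10 and Tgfb1. All 10 were found among the 23469 genes of the deposited table, and 8 of them averaged 1 TPM or more, the minimum for testing, as did 8801 genes in all. The libraries were made by Smart-seq2, a full-length method for small amounts of RNA, from macrophages of malignant ascites, 4 from ascites-enriched embryonic macrophages (AeEMs) and 4 from ascites-enriched monocyte-derived macrophages (AeMMs). Both kinds of cell came from female Ms4a3TdT fate-mapping mice on C57BL/6, which were injected into the peritoneum with ID8 ovarian tumor cells at 4 to 5 weeks of age and had no other treatment. Ascites was taken 65 days later. In this model Cre is driven by Ms4a3, a gene of granulocyte-monocyte progenitors, so that their progeny carry tdTomato. AeEMs were sorted as tdTomato-negative and AeMMs as tdTomato-positive, and the embryonic origin of AeEMs is therefore inferred from a missing label. The study used 4 mice in 4 runs, and its text does not say whether libraries of equal number share a mouse.

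Cytokines are secreted or membrane-bound proteins by which macrophages steer inflammation. IL-1, TNF and oncostatin M promote it, IL-10 and TGF-beta restrain it, and the IL-1 receptor antagonist blocks IL-1 at its receptor. Resting peritoneal macrophages keep most of these transcripts low, and microbial products or tissue injury raise them through NF-kB and related factors. Several of the proteins are also held as precursors, so that transcript and active protein can part.

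None of the 8 cytokines tested passed the threshold between AeEMs and AeMMs, which was a Benjamini-Hochberg adjusted p of 0.05 in limma (2.41% of all tested genes passed). The unadjusted two-sided p was under 0.05 in 2 of them, Osm and Tnfsf9 (18.0% of all tested genes). In limma with a term for the 3 sets of libraries described below, again 0 of 8 passed (0.159% of all tested genes), and the same 2 had an unadjusted p under 0.05 (9.64% of all tested genes). When limma weighted the libraries by their closeness to the fit, replicates 3 and 4 fell far below replicates 1 and 2. The weights followed the sets, so library quality and the shift between sets cannot be told apart in them. With the weights 3 passed, all lower in AeEMs, Osm (-0.64), Tnf (-0.59) and Il18 (-0.24). Under these weights 15.6% of all tested genes passed and 9.5% passed as lower, and the log2 fold change of Il1b was 0.53, of the opposite sign to that without weights (-0.42). In none of the 8 were the 4 AeEM and the 4 AeMM libraries free of overlap (12.2% of all tested genes). Values are on the log2(TPM + 1) scale throughout unless TPM is named, and a difference or log2 fold change is AeEM minus AeMM. On this scale the change of low genes is understated.

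The 3 sets are replicate 1, replicate 2, and replicates 3 and 4 together. The deposited values had been shifted between sets until their means almost coincided gene by gene, with a median range of 0.01 between set means among tested genes and at most 0.06 among the cytokines. Differences within a set are therefore given beside the differences over all libraries. The unpaired fit takes no account of this shift, so its p-values can be too small. The macrophage identity of the libraries was clear from Lyz2, at 16.06 in AeEMs and 16.15 in AeMMs, and Csf1r, at 7.38 and 7.66. Gata6, a factor of resident peritoneal macrophages, stood at 0.34 in both. Of 11 macrophage markers tested 1 passed, the resident gene Lyve1, lower in AeEMs. It stood at 6.41 against 7.12 in AeMMs (limma adjusted p = 0.0034, or 0.060 given a set term). The resident genes Timd4 (3.12 against 2.25) and Folr2 (4.68 against 4.46) were higher in AeEMs and did not pass. The table holds no read counts, so the depth is unknown and no counting interval is given. Because these are bulk samples, fewer producing cells and less RNA per cell cannot be told apart.

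The promoters of Il1a, Il1b and Tnf are shown because Il1a and Il1b are neighbors that ordered the libraries differently, and because Il1b and Tnf are the classical inducible cytokines of macrophages. RefSeq windows on GRCm38.p6 were found for 7 of the 10 genes, each of 300 bases, from 250 before to 50 after a transcript start. Capitals mark the letters TATAAA, searched on both strands. The Il1a window is chr2:129309923-129310222, the Il1b window chr2:129371090-129371389 and the Tnf window chr17:35201958-35202257, all on the minus strand and written 5′ to 3′ along the gene.
Il1a: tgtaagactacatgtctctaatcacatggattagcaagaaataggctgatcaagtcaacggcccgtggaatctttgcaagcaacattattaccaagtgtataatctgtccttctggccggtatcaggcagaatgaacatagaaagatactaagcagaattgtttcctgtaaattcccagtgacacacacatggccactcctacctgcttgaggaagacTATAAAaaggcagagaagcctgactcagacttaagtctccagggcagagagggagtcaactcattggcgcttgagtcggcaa
Il1b: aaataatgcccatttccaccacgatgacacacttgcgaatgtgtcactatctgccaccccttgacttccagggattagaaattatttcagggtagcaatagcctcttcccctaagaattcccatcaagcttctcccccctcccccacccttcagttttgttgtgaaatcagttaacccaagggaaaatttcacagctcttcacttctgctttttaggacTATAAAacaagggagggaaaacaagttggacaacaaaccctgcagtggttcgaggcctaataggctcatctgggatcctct
Tnf: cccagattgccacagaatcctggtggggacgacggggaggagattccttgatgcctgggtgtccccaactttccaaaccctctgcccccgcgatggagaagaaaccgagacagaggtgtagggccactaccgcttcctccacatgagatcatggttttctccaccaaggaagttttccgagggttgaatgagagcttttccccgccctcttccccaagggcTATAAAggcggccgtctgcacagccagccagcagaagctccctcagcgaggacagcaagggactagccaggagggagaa
The capitals start 32 bases before the start of Il1a, 31 before that of Il1b and 29 before that of Tnf. TATAAA occurred in windows of 5 cytokines, these 3 with Il1rn and Il18, and in 13.6% of all 32851 windows. The motif TGANTCA of AP-1, also searched on both strands, occurred in windows of Il1a, Il1rn and Il6 and in 7.81% of all windows. The NF-kB consensus occurred in the windows of Il6 and Tgfb1 and in 8.46% of all windows. No TATAAA match overlapped a match of the other motifs in the 3 windows shown. A match is a description of the letters only.

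Il1a encodes IL-1 alpha, which is active without cleavage and often stays in the cell until it dies. The gene lies on chromosome 2 of mm10 from 129299610 to 129309972 (GENCODE M21, minus strand). Il1a stood at 3.15, 3.56, 3.64 and 3.02 in AeEM replicates 1 to 4, against 3.58, 3.23, 3.10 and 3.86 in AeMM replicates 1 to 4. The groups overlapped over most of their range, and AeEM libraries were above AeMM libraries in 6 of the 16 possible pairs. The log2 fold change was -0.10 (standard error 0.20, 95% interval -0.56 to 0.36, limma adjusted p = 0.86, n = 4 each). The within-set differences were -0.43, 0.33 and -0.15 in replicate 1, replicate 2 and replicates 3 and 4, with no common sign.

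Il1b encodes IL-1 beta, whose precursor is cleaved by caspase-1 before release. It lies 54.6 kb from Il1a, from 129364570 to 129371139 on the same chromosome and strand. Il1b stood at 2.51, 2.05, 0.90 and 0.84 in AeEM replicates 1 to 4, against 1.08, 1.53, 2.82 and 2.54 in AeMM replicates 1 to 4. Replicates 1 and 2 were high in AeEMs, replicates 3 and 4 were high in AeMMs, and each group held both high and low libraries. Set by set, AeEM minus AeMM was 1.43, 0.52 and -1.82, in the order of sets given for Il1a. Over all libraries the log2 fold change was -0.42 (standard error 0.49, 95% interval -1.53 to 0.69, limma adjusted p = 0.72), so the data leave room for a difference of either sign. Within-group SD was 0.84 in AeEMs and 0.83 in AeMMs, and 2.01% of the tested genes had a pooled within-group SD as large as that of Il1b.

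Il1rn encodes the IL-1 receptor antagonist, on chromosome 2 from 24336853 to 24351494 (plus strand). It has several transcript starts, for secreted and intracellular forms, which a table per gene does not separate. Il1rn stood at 3.94, 3.51, 2.38 and 4.11 in AeEM replicates 1 to 4, against 3.46, 3.80, 3.79 and 4.31 in AeMM replicates 1 to 4. One low library, AeEM replicate 3, stood apart from 7 others that overlapped. Its log2 fold change was -0.35 (standard error 0.36, 95% interval -1.16 to 0.46, limma adjusted p = 0.67), and 0.018 without AeEM replicate 3 (limma adjusted p = 0.98). The differences within the sets were 0.48, -0.29 and -0.80.

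Il18 encodes IL-18, a cytokine that macrophages make constitutively as a precursor for caspase-1, on chromosome 9 from 50554827 to 50581840 (plus strand). It stood at 2.98, 3.01, 3.16 and 3.09 in AeEM replicates 1 to 4, against 3.28, 3.27, 3.23 and 3.09 in AeMM replicates 1 to 4. It was the most even of the cytokines tested, with a pooled within-group SD of 0.08, and 93.9% of tested genes had an SD as large. Only 1 of the 16 pairs had the AeEM library above the AeMM library. AeEMs differed from AeMMs by -0.16 (standard error 0.09, 95% interval -0.37 to 0.05, limma adjusted p = 0.41), and the two-sided exact permutation p over 70 splits was 0.0571, where the smallest possible is 0.0286. Among the 24 splits balanced within sets, whose smallest possible p is 0.0833, the exact permutation p was 0.167. The differences were -0.30, -0.26 and -0.04 in the 3 sets.

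**Figure D1:**
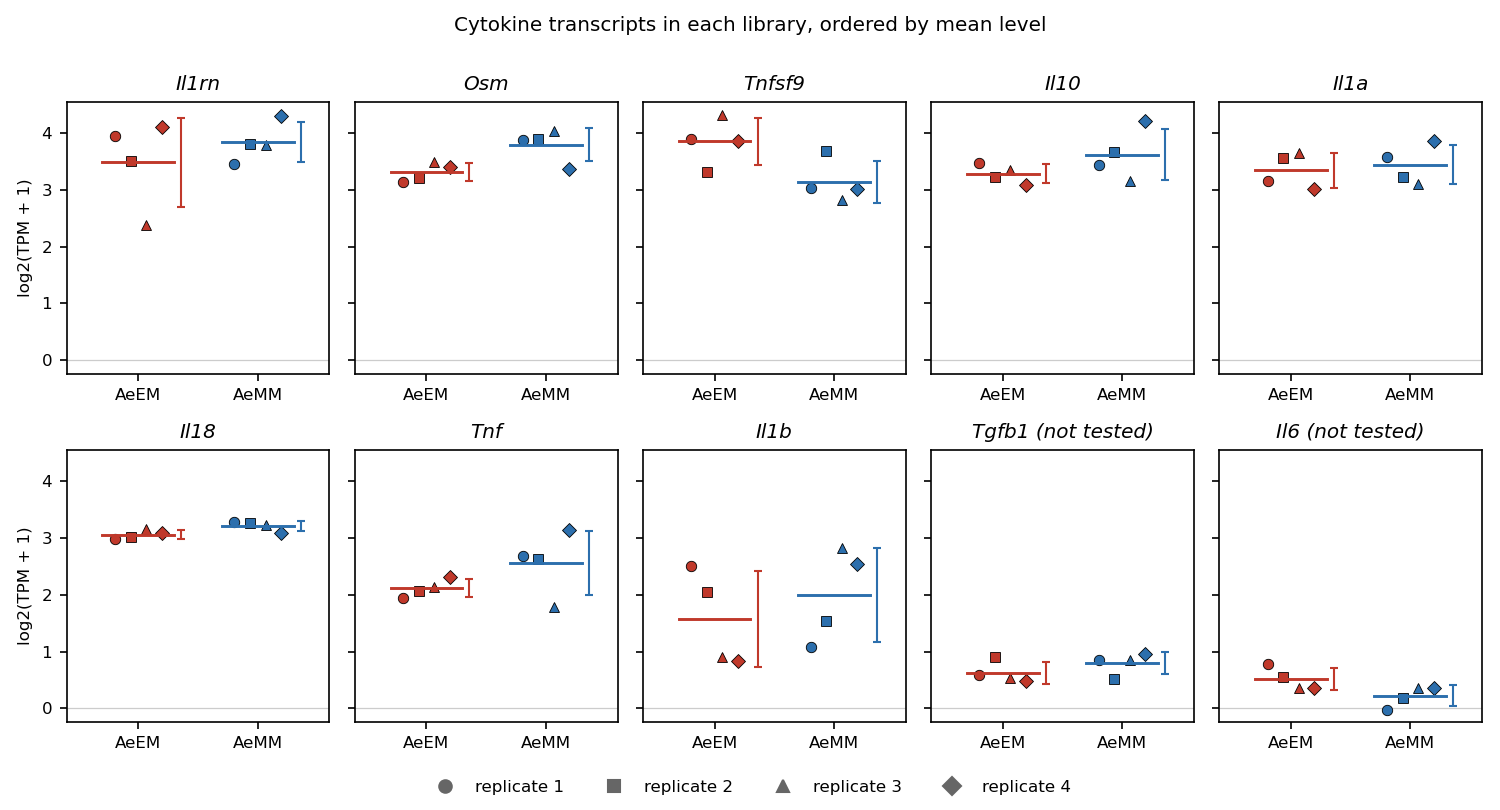
Level of each cytokine transcript in log2(TPM + 1) (vertical axis) in AeEM libraries (red) and AeMM libraries (blue), with 1 point per library, marker shape for the replicate number, a horizontal line for the mean and a bar for the SD of 4 libraries. The groups overlap or tie in every panel, Il1b splits both groups between replicates 1 and 2 and replicates 3 and 4, and Il6 is tied at 0.36 in replicates 3 and 4; Tgfb1 and Il6 were under the filter for limma.

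Tnf encodes TNF, made as a membrane protein and shed by ADAM17, on chromosome 17 from 35199381 to 35202007 (minus strand). Tnf stood at 1.93, 2.06, 2.14 and 2.31 in AeEM replicates 1 to 4, against 2.68, 2.63, 1.78 and 3.15 in AeMM replicates 1 to 4. The AeEM libraries lay close together, and 3 of the 4 AeMM libraries were above them all while AeMM replicate 3 was below them all. Tnf differed by -0.45 (standard error 0.26, 95% interval -1.03 to 0.13, limma adjusted p = 0.41). It was -0.71 without AeMM replicate 3 (limma adjusted p = 0.074) and -0.25 without AeMM replicate 4 (limma adjusted p = 0.64). The difference had the same sign in all 3 sets, at -0.74, -0.57 and -0.24.

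Tnfsf9 encodes the 4-1BB ligand, which costimulates T cells through 4-1BB, on chromosome 17 from 57105325 to 57107757 (plus strand). It stood at 3.90, 3.32, 4.33 and 3.86 in AeEM replicates 1 to 4, against 3.02, 3.69, 2.83 and 3.01 in AeMM replicates 1 to 4. It was the 1 cytokine of the 8 with a positive log2 fold change, and the AeEM library was above the AeMM library in 15 of 16 pairs. The exception was replicate 2 of both groups. In TPM the means were 13.9 in AeEMs and 8.05 in AeMMs. The log2 fold change of 0.71 was a 1.64-fold ratio on the log2(TPM + 1) scale (standard error 0.24, 95% interval 0.17 to 1.26, unadjusted limma p = 0.016, limma adjusted p = 0.17, exact permutation p = 0.0571). Balanced splits gave Tnfsf9 an exact permutation p of 0.167. The differences within the sets were 0.88, -0.37 and 1.17, so replicate 2 ran against the rest.

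Osm encodes oncostatin M, a macrophage cytokine of the IL-6 family that acts on stromal and epithelial cells, on chromosome 11 from 4236420 to 4241026 (plus strand). It stood at 3.14, 3.21, 3.49 and 3.40 in AeEM replicates 1 to 4, against 3.88, 3.90, 4.03 and 3.37 in AeMM replicates 1 to 4. AeMM replicates 1 to 3 were above all 4 AeEM libraries, and AeMM replicate 4 fell among them. The means were 8.96 TPM in AeEMs and 13.1 TPM in AeMMs. The log2 fold change was -0.49 (standard error 0.16, 95% interval -0.84 to -0.14, unadjusted limma p = 0.012, limma adjusted p = 0.15, exact permutation p = 0.0857). Balanced splits gave Osm an exact permutation p of 0.25. Without AeMM replicate 4 the log2 fold change of Osm was -0.63 and passed (limma adjusted p = 0.043), whereas a set term gave a limma adjusted p of 0.46. The differences within the sets were -0.74, -0.69 and -0.26.

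Il6, the prototype of that family, lies on chromosome 5 from 30013114 to 30019981 (plus strand) and was the lowest of the 10 cytokines. It stood at 0.78, 0.56, 0.36 and 0.36 in AeEM replicates 1 to 4, against -0.02, 0.19, 0.36 and 0.36 in AeMM replicates 1 to 4. The 4 values of replicates 3 and 4 were equal to the last digit, and the negative value cannot be a level of TPM. Such ties in these 4 libraries occurred in 4980 genes of the table, with a median tied value of 0.0053, but in only 10 of the tested genes and in no other cytokine. The difference of 0.29 thus came from replicates 1 and 2 alone (0.80 and 0.37), and the exact permutation p was 0.171. Il6 was under the filter and was not tested in limma.

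Il10 encodes IL-10, which limits macrophage activation, on chromosome 1 from 131019845 to 131024974 (plus strand). It stood at 3.48, 3.23, 3.35 and 3.08 in AeEM replicates 1 to 4, against 3.44, 3.67, 3.16 and 4.21 in AeMM replicates 1 to 4. AeMM replicate 4 was the highest library and the other 7 overlapped. The fitted difference was -0.34 (standard error 0.21, 95% interval -0.81 to 0.14, limma adjusted p = 0.46), and -0.14 without AeMM replicate 4 (limma adjusted p = 0.71). The differences within the sets were 0.04, -0.44 and -0.47.

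Tgfb1 encodes TGF-beta 1, which is secreted in a latent complex, on chromosome 7 from 25687002 to 25705077 (plus strand). It stood at 0.59, 0.90, 0.53 and 0.48 in AeEM replicates 1 to 4, against 0.85, 0.51, 0.86 and 0.95 in AeMM replicates 1 to 4. Both groups were under 1 TPM on average, at 0.552 TPM in AeEMs and 0.743 TPM in AeMMs, and the gene was not tested in limma. The difference was -0.17 (exact permutation p = 0.371), with -0.26, 0.39 and -0.40 within the sets.

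TPM values are relative to transcript length, so levels can be compared between the cytokines. Over the 8 libraries the order of mean log2(TPM + 1) was Il1rn (3.66), Osm (3.55), Tnfsf9 (3.49), Il10 (3.45), Il1a (3.39), Il18 (3.14), Tnf (2.34), Il1b (1.78), Tgfb1 (0.71) and Il6 (0.37). From Il1rn down to Il18 each gene was above the next in only 4 or 5 of the 8 libraries, with mean gaps of 0.04 to 0.25, each smaller than its SD over libraries. Il18 was above Tnf in 7 libraries (gap 0.80 ± 0.44, SD), Tnf above Il1b in 6 (0.55 ± 0.99) and Il1b above Tgfb1 in all 8 (1.08 ± 0.71). The antagonist Il1rn had a mean of 12.5 TPM over all 8 libraries, and the ligands it competes with had 9.72 TPM (Il1a) and 2.92 TPM (Il1b).

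Agreement between replicates differed from gene to gene. The sign of the difference was the same in all 3 sets for 3 of the 8 cytokines tested, Il18, Tnf and Osm, all lower in AeEMs (32.6% of all tested genes had a common sign, and 19.2% were lower in AeEMs in all 3). The 3 of 8 lie near the 32.6% of either direction and above the 19.2% lower in AeEMs, a gap that was not tested. Of the 8, 7 had a negative and 1 a positive log2 fold change, with a median of -0.34, against -0.01 over all tested genes. The median within-group SD was 0.37 for the cytokines and 0.20 for all tested genes, and Il1b and Il1rn varied most (0.83 and 0.61). AeMM replicate 4 was the highest of the 8 libraries in 5 of the 10 cytokines (Il1a, Il1rn, Il10, Tnf and Tgfb1), and AeEM replicate 4 the lowest in 4 (Il1a, Il1b, Il10 and Tgfb1), a count made after their values were seen.

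**Figure D2:**
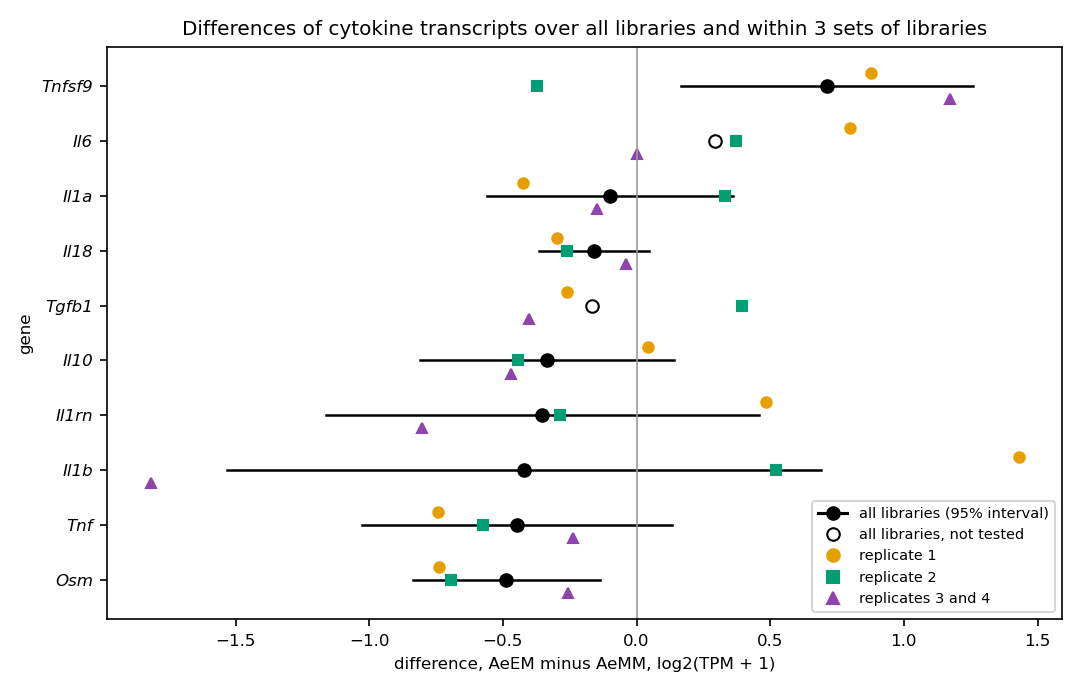
Difference between AeEMs and AeMMs in log2(TPM + 1) (horizontal axis) for each cytokine, over all libraries (black, with the 95% interval of limma where the gene was tested) and within replicate 1, replicate 2 and replicates 3 and 4 (colored). Osm, Tnf and Il18 lie left of 0 in all 3 sets, whereas Il1b runs from 1.43 in replicate 1 to -1.82 in replicates 3 and 4.

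**Figure D3:**
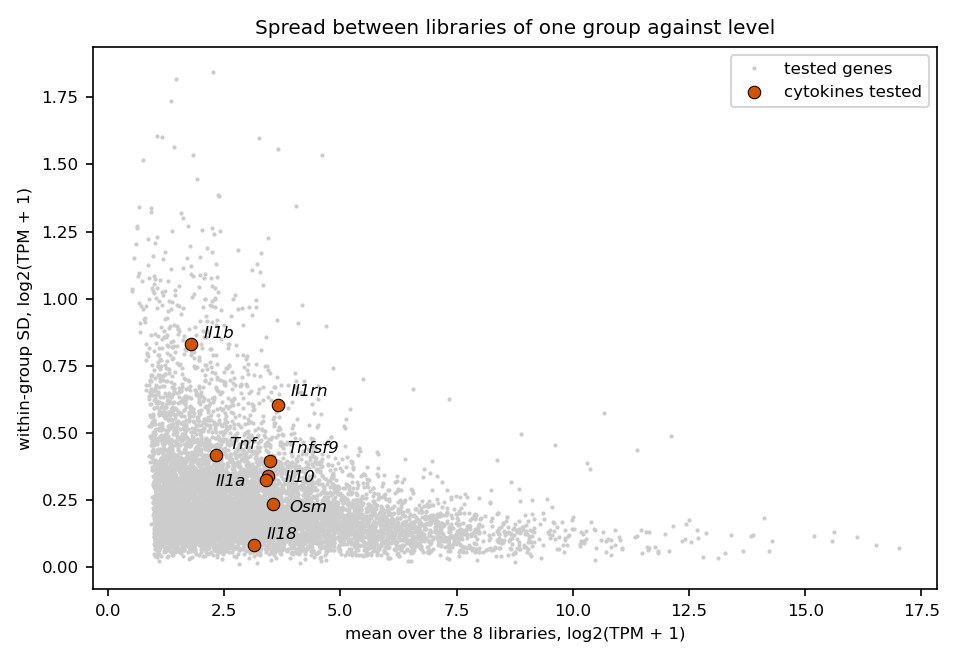
Pooled within-group SD (vertical axis) against the mean over the 8 libraries (horizontal axis), both in log2(TPM + 1), for the 8801 tested genes (gray) and the 8 cytokines tested (orange). Il1b is the most variable of the cytokines at 0.83 and Il18 the least at 0.08.

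The receptors and partners of the cytokines were taken from fixed lists, and 2 of the 100 listed genes tested passed the threshold. Traf1, an adaptor that binds 4-1BB and TNF receptor 2, rose in AeEMs, and Tgfbr2, the type II receptor of TGF-beta, fell (1.25% of all tested genes were higher and 1.16% lower). Traf1 stood at 1.67, 1.74, 1.64 and 1.61 in AeEM replicates 1 to 4, against 0.78, 0.68, 0.88 and 0.69 in AeMM replicates 1 to 4, with no overlap. Traf1 averaged 2.17 TPM in AeEMs and 0.694 TPM in AeMMs, so it met the filter of 1 TPM only through AeEMs. Its log2 fold change was 0.91 (standard error 0.11, limma adjusted p = 0.0044, or 0.11 given a set term), with 0.89, 1.05 and 0.84 within the sets. Tgfbr2 stood at 3.68, 3.73, 3.72 and 3.79 in AeEM replicates 1 to 4, against 4.18, 4.15, 4.06 and 4.21 in AeMM replicates 1 to 4, again without overlap. Its log2 fold change was -0.42 (standard error 0.08, limma adjusted p = 0.026, or 0.31 given a set term). The limma adjusted p of Tgfbr2 was 0.060 to 0.12, past the threshold no longer, when any 1 of AeEM replicates 1 and 2 and AeMM replicates 1, 2 and 4 was left out.

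In the list of IL-1 and IL-18 processing, receptors and signaling, 0 of 12 tested genes passed. An unadjusted limma p under 0.05 was found in 3 of them (18.0% of all tested genes). The receptors were all under the filter. AeEMs had 0.01 and AeMMs 0.02 for the signaling receptor Il1r1, and 0.21 and 0.04 for the decoy receptor Il1r2. For the shared coreceptor Il1rap AeEMs had 0.66 and AeMMs 0.72, and for Il18r1 they had 0.05 and 0.02. In AeMM replicate 1 Il1r2 was at -0.03 and Il18r1 at -0.02, which cannot be levels of TPM. Il18bp, the soluble antagonist of IL-18, was by far more abundant than its ligand, at 7.17 ± 0.07 in AeEMs and 7.44 ± 0.12 in AeMMs (SD, n = 4 each). All 4 AeEM libraries were below all 4 AeMM libraries, and the log2 fold change of -0.27 did not pass (limma adjusted p = 0.099, standard error 0.07). Casp1, the protease of both precursors, stood at 6.11 ± 0.20 and 6.23 ± 0.40 (limma adjusted p = 0.81). Nlrp3, an inflammasome sensor, was under the filter at 0.37 in both groups.

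In the list of TNF and 4-1BB receptors, shedding and signaling, 1 of 11 tested genes rose, Traf1, and 10 did not pass. In 5 of the 11 the unadjusted limma p was under 0.05 (18.0% of all tested genes). Tnfrsf1a, TNF receptor 1, stood at 5.53 ± 0.12 in AeEMs and 5.68 ± 0.23 in AeMMs (limma adjusted p = 0.58). Tnfrsf1b, TNF receptor 2, stood at 4.12 ± 0.16 and 4.46 ± 0.16, with a log2 fold change of -0.34 (95% interval -0.60 to -0.08, limma adjusted p = 0.17). Tnfrsf9, which encodes 4-1BB itself, was under the filter at 0.31 in AeEMs and 0.06 in AeMMs. It was tied at 0.18 in AeEM replicates 3 and 4 and AeMM replicate 3, and the difference within replicates 3 and 4 was -0.005. AeMM replicate 2 was at -0.13, which cannot be a level of TPM. The sheddase Adam17 stood at 3.75 ± 0.07 and 3.85 ± 0.14 (limma adjusted p = 0.65). Of the other TNF superfamily ligands, 4 of 15 were tested and none passed in limma. An unadjusted limma p under 0.05 was found in 2 of the 4 (18.0% of all tested genes).

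In the list of IL-6 family ligands, receptors and signaling, 0 of 11 passed and 0 had an unadjusted limma p under 0.05 (18.0% of all tested genes). Il6ra was at 2.69 ± 0.25 in AeEMs and at 2.72 ± 0.31 in AeMMs. Il6st, the shared signaling chain, was at 2.39 ± 0.23 in AeEMs and at 2.32 ± 0.53 in AeMMs. Osmr, the receptor chain of oncostatin M, was under the filter at 0.10 in both groups. In the IL-10 family and other regulatory cytokines, 0 of 6 passed and 0 had an unadjusted limma p under 0.05 (18.0% of all tested genes). Il10ra was at 4.76 ± 0.10 in AeEMs and at 4.72 ± 0.08 in AeMMs, and Il10rb at 5.47 ± 0.09 and 5.55 ± 0.10.

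In the TGF-beta list, 1 of 12 tested genes fell, Tgfbr2, and 11 did not pass. The unadjusted limma p was under 0.05 in 5 of the 12 (18.0% of all tested genes). Of the 12, 11 had a negative log2 fold change, with a median of -0.14 against -0.01 over all tested genes. Tgfbr1, the type I receptor, had a level of 3.12 ± 0.23 in AeEMs and of 3.49 ± 0.18 in AeMMs (log2 fold change -0.37, standard error 0.14, limma adjusted p = 0.21). Nrros, which tethers latent TGF-beta on macrophages, stood at 5.66 ± 0.02 and 5.67 ± 0.07. The log2 fold change of Nrros was -0.01, with a 95% interval of -0.15 to 0.14. Furin, a convertase of the precursor, stood at 1.64 ± 0.47 and 1.67 ± 0.41, and Ltbp1, a latent-form binding protein, was under the filter at 0.08 and 0.01.

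**Figure D4:**
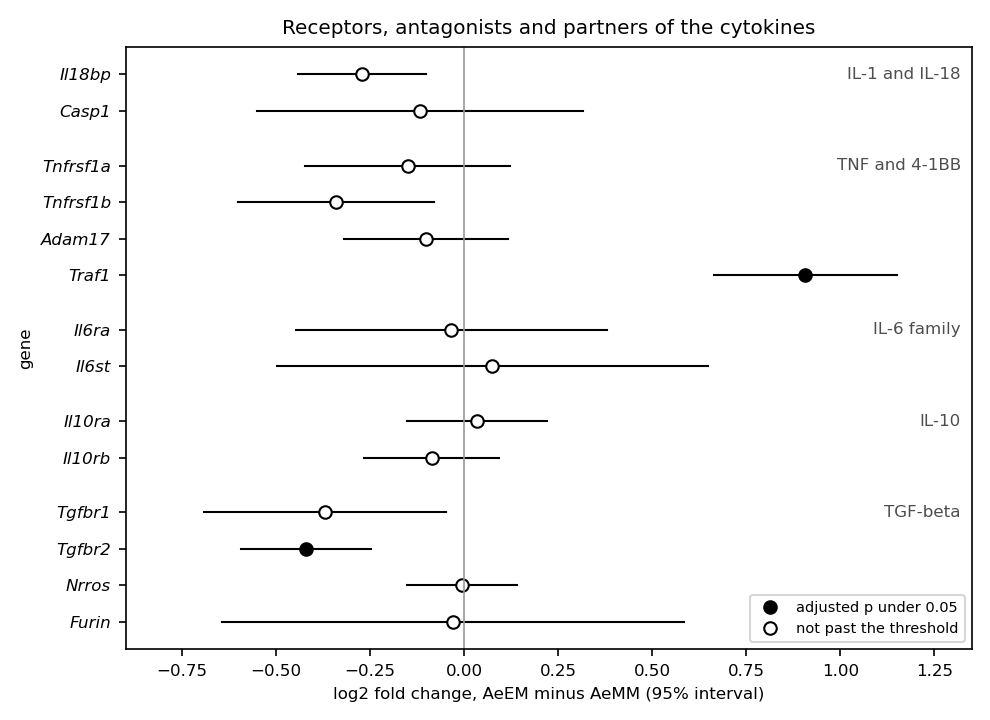
Log2 fold change, AeEM minus AeMM, with the 95% interval of limma (horizontal axis) for receptors, antagonists and partners of the cytokines that passed the filter, grouped by ligand family (n = 4 libraries per group). Filled points, Traf1 at 0.91 and Tgfbr2 at -0.42, passed the adjusted threshold and open points did not.

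In the lists of NF-kB genes and of cytokine mRNA decay, 0 of 19 and 0 of 11 tested genes passed in limma. In each list 3 had an unadjusted limma p under 0.05 (18.0% of all tested genes). Nfkbia, the inhibitor that NF-kB itself induces, stood at 9.08 in AeEMs and 9.07 in AeMMs. Zfp36, which destabilizes Tnf and other cytokine transcripts, stood at 7.91 in AeEMs and 7.87 in AeMMs. In the list of immediate early and handling stress genes, 0 of 14 passed and 2 had an unadjusted limma p under 0.05 (18.0% of all tested genes). They were the heat shock genes Hspa1a (log2 fold change -0.83) and Hspa1b (-0.85), both near-identical copies whose reads may be split. Both were highest in AeMM replicate 4 (4.06 and 2.95), the library that was also highest in 5 cytokines. Their part in the cytokine values was not tested.

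Markers of other cells moved between the groups as well. The summed level of 9 dendritic cell markers was 52.4 to 115 TPM in AeEMs and 12.4 to 19.3 TPM in AeMMs. In AeEMs the sum rested mostly on 1 gene, Cd209a, at 5.98 in AeEMs and 2.33 in AeMMs. Cd209a, Itgax and Batf3 passed as higher. Given a set term, Cd209a still passed (limma adjusted p = 0.033), while Itgax (0.11) and Batf3 (0.27) did not. The defining dendritic cell genes Xcr1, Clec9a, Flt3, Zbtb46 and Siglech were under the filter. The summed level of 10 neutrophil markers was 21.2 to 24.1 TPM in AeEMs and 35.6 to 46.7 TPM in AeMMs. It rested mostly on S100a8 (3.61 in AeEMs, 4.65 in AeMMs) and Csf3r (3.33 and 3.86). Of the 3 tested, S100a8 passed as lower (limma adjusted p = 0.0044, or 0.060 given a set term). Csf3r did not pass (limma adjusted p = 0.11), and Mmp8 ran the other way (1.53 against 0.96) and did not pass either. Cxcr2, Retnlg, Ltf, Ngp and Mpo were under 0.1 TPM. Of 9 monocyte markers 2 passed as lower, Ly6c2 and Chil3, with sums of 172 to 264 TPM in AeEMs and 161 to 206 TPM in AeMMs. Neither passed given a set term (limma adjusted p = 0.25 for Ly6c2 and 0.20 for Chil3). No eosinophil, erythroid or B cell marker passed. Eosinophil sums were 30.1 to 52.5 TPM in AeEMs and 16.9 to 28.9 TPM in AeMMs, mostly from Alox15. Erythroid sums were 7665 to 12746 TPM in AeEMs and 4209 to 10475 TPM in AeMMs. B cell and plasma cell sums were 35.8 to 87.4 TPM in AeEMs and 66.5 to 79.0 TPM in AeMMs. Their part in the cytokine values was not tested.

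The genes nearest in pattern to the 3 cytokines with the largest absolute differences were sought among the 3210 tested genes that averaged 10 TPM or more, by the root mean square distance of values centered on each gene's own mean over the 8 libraries. For Tnfsf9, whose own root mean square deviation was 0.49, they were Ube2c (0.16), Cdt1 (0.16) and Zfpl1 (0.19). For Osm, with 0.32, they were Bmi1 (0.06), Maf (0.10) and Ang (0.11). Of these, Maf, a macrophage transcription factor, passed as lower in AeEMs (6.58 against 7.04 in AeMMs, limma adjusted p = 0.047, or 0.27 given a set term). For Tnf, with 0.43, they were Rhoq (0.12), Gm45606 (0.15) and Wtap (0.19). These 9 genes are a ranking by likeness over 8 libraries, with no test.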

How the data were processed

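Smart-seq2 libraries of sorted mouse ascites macrophages were cleaned with fastp, mapped with STAR 2.7.2a to mm10 and counted with Subread featureCounts by the authors. The authors deposited values in log2 units, as log2(TPM + 1), which were shifted between 3 sets of libraries. The steps to TPM, log and shift, and the annotation, are not given in the sources used here. Values were used as deposited, and back-transformed to TPM, with values below 0 set to 0, for the filter and alternatives. The design had foreseen log2(TPM + 1) as the scale.

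AeEMs and AeMMs were compared with limma 3.58.1 in R 4.3.3, without pairing, using its mean-variance trend, over the genes that averaged 1 TPM or more, with Benjamini-Hochberg adjustment over them. Single genes were compared by two-sided exact permutation over 70 splits. P-values measure the spread between 4 libraries per group, as left by the shift between sets. The unpaired fit takes no account of that shift, so its p-values can be too small. A set term lowered the share of tested genes that passed from 2.41% to 0.159%. The fits were tested on simulated data. Alternatives changed the pseudocount (0.1 and 5), filter, scaling, trend, weights, replicate block, set term, threshold and libraries.

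The members, lists and tests were chosen with earlier results of these data known. The text names the 10 cytokines, listed genes past the threshold, receptors, antagonists and processing genes of the cytokines, and 3 genes nearest in pattern to each of 3 cytokines. Nfkbia, Zfp36, Hspa1a, Hspa1b and the markers were named after their values were seen. Positions came from GENCODE M21 on mm10.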

Additional observations from a re-analysis of the deposited data

Results flagged for a closer look

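Casp1 in AeMM replicate 4 stood at 6.82, against 5.95 to 6.09 in the other 3 AeMM libraries, a gap to the nearest library that exceeded Dixon's 95% critical share of the range for 4 samples. It was the 1 value so marked in 64 groups of 4 libraries checked (the cytokines, their named partners and the listed genes that passed), where chance marks about 1 group in 20. AeMM replicate 4 was also the library highest in 5 of the 10 cytokines.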

How the results depend on the processing

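Depth is unknown, so low genes such as Il6 and Tgfb1 cannot be given a detection limit. The count of cytokines past the threshold was 0 under every alternative run but 2. It was 3 with array weights, under which 15.6% of all tested genes passed, and Osm, Tnf and Il18 passed as lower in AeEMs (limma adjusted p = 0.0052, 0.038 and 0.041), and 0 to 1 when single libraries were left out, the 1 being Osm without AeMM replicate 4. The array weights were 2.14 to 2.37 for replicates 1 and 2 and 0.39 to 0.48 for replicates 3 and 4. They follow the sets, so library quality and the shift between sets cannot be told apart in them. With these weights Il1b had a log2 fold change of 0.53, the reverse of its sign without weights. The weights also moved Il1rn to -0.02 and Tnfsf9 to 0.41 (limma adjusted p = 0.26), against -0.35 and 0.71 without weights. Leaving out single libraries gave log2 fold changes of -0.21 to 0.04 for Il1a and -0.56 to 0.018 for Il1rn, each across 0 (positive without AeEM replicate 4, 0.011, or AeMM replicate 4 for Il1a, and without AeEM replicate 3 for Il1rn), and the cause was not tested. None of the other 5 cytokines tested in limma changed sign under the alternatives run. For Il6 and Tgfb1 no alternative was run but the fit without a filter.

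Of the listed genes, 1 passed as higher and 1 as lower. These counts were 0 and 0 with the replicate block, with a set term and with replicates 3 and 4 only (limma, where 0 of all genes passed). Without a filter 2 passed as higher, Traf1 and Il18rap, a chain of the IL-18 receptor (log2 fold change 1.07). With a mean of at least 5 TPM 0 passed as higher, since Traf1 was then not tested, and Il1b and Tnf were not tested either. Leaving out single libraries left 1 higher each time and 0 to 3 lower. Tgfbr2, Tnfsf13 and Zfp36l1 were the 3 without AeEM replicate 3, Tgfbr2 and Hspa1b the 2 without AeMM replicate 3, and 0 passed when any 1 of AeEM replicates 1 and 2 and AeMM replicates 1, 2 and 4 was left out.

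Libraries of equal number cannot be checked for pairing, because of the shift between sets. It makes the AeEM and AeMM libraries of replicate 1 deviate oppositely from their group means, and likewise those of replicate 2. The correlation of these deviations was -0.99 for replicate 1 and -0.999 for replicate 2. It was -0.20 and -0.13 for replicates 3 and 4. With the replicate block 3 genes were higher and 2 lower among all tested, against 110 and 102 without it, and array weights gave 540 and 836. The counts were 9 and 5 with a set term, 78 and 58 without the trend, 155 and 113 with size factors, 29 and 16 when a change of 1 or more on the log2 scale was also asked for, and 40 to 106 and 31 to 113 when single libraries were left out.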
